A study of Mus musculus with 12 samples.

Results

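Dexamethasone was compared with vehicle in the livers of wild-type mice, 3 arrays against 3, which are the 6 wild-type arrays of the 12 in the series. Arrays were chosen by their labels alone. All mice were male C57Bl/6 animals, injected intraperitoneally over 3 weeks with dexamethasone at 1 mg/kg or with vehicle, and each group held 3 biological replicates. The 6 remaining arrays repeat the comparison in mice whose genotype is given as an HDAC6 knockout, with 3 dexamethasone and 3 vehicle arrays. Food was freely available and the light cycle was constant. Age, the vehicle, the number of injections and the hour of collection are not given in the sources used here, nor is how the knockout was made. Livers were snap-frozen whole, and total RNA was hybridised to Affymetrix whole-transcript arrays, 1 array per replicate. The design asks which liver transcripts the drug changes when Hdac6 is present.

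Dexamethasone is a synthetic glucocorticoid that binds the glucocorticoid receptor, a ligand-activated transcription factor encoded by Nr3c1. The receptor binds DNA as a dimer at a short palindrome, the glucocorticoid response element, and also acts through contacts with other transcription factors. In hepatocytes glucocorticoids are known for raising the genes of glucose production, amino acid breakdown and metallothioneins, and in immune cells for lowering inflammatory genes.

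Values are log2 intensities as deposited, so a difference of 1 is a doubling. The 12 arrays had medians of 3.13 to 3.24. In wild-type arrays, pairs correlated at 0.985 to 0.990 within a group and at 0.974 to 0.983 between the groups. The liver label fitted the markers: the mean of 15 hepatocyte genes lay between 12.16 and 12.27 on all 6 arrays. Transcripts of the exocrine pancreas were present on some of them. Cpa1, a digestive carboxypeptidase of the exocrine pancreas, stood at 2.95, 3.31 and 9.44 on the dexamethasone arrays 1, 2 and 3 and at 11.64, 11.21 and 2.96 on the vehicle arrays 1, 2 and 3. With a limit of 6, dexamethasone 3 and vehicle 1 and 2 carried pancreas transcripts, as did 1 knockout vehicle array. Because these arrays are unevenly divided, counts over all genes and for most gene lists are also given from the 8 arrays of the series at or below the limit. That fit keeps 2 dexamethasone arrays and 1 vehicle array of the wild type, and the lone vehicle array is assumed to vary like the other groups.

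Of 17904 genes tested, dexamethasone raised 819 and lowered 1245 in limma at an adjusted p below 0.05, which is 4.57% and 6.95% of the genes. Increases were fewer and steeper than decreases. Changes of at least 1 on the log2 scale numbered 222 increases and 201 decreases, changes of at least 2 numbered 57 and 12, changes of at least 3 numbered 23 and 2, and changes of at least 4 numbered 10 and 0. The median change over all genes was 0.01. Split into 3 equal parts of 5968 genes by mean level, the dimmest part held 53 increases and 39 decreases, the middle part 246 and 538, and the brightest part 520 and 668. In 2037 of the 2064 called genes (11.5% of those tested) the arrays of both groups were fully separated, as they were upward in 12.5% and downward in 14.5% of all genes. Without the arrays above the Cpa1 limit 306 genes were higher (1.71%) and 253 lower (1.41%), of which 289 and 242 were among the 819 and 1245. The median change of the 819 was 0.68 with all arrays and 0.67 without those arrays, and that of the 1245 was -0.63 and -0.60. These genes were called on arrays that both fits share, so the likeness of the medians is partly fixed in advance and is no separate check. With the mean of the pancreas markers as a covariate over all arrays, 629 genes were higher (3.51%) and 912 lower (5.09%). Without the arrays above the limit 55 of the 57 increases of at least 2 were called again and 9 of the 12 decreases. The pancreas part in the lost calls was not tested apart from the loss of arrays.

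**Figure D1:**
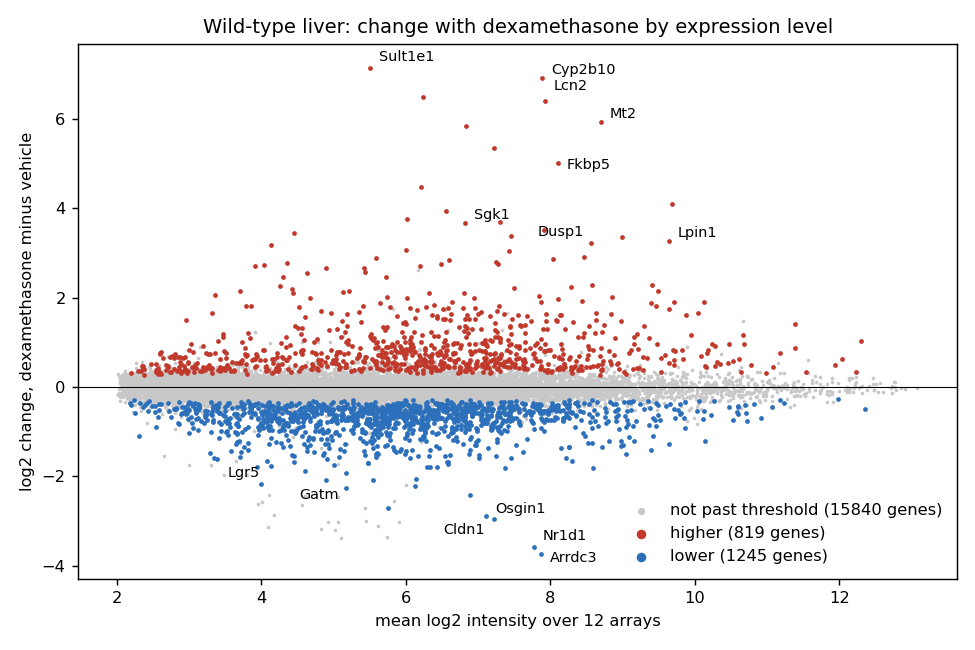
Each point is 1 of 17904 genes, with its mean log2 intensity over the 12 arrays on the x axis and its log2 change (dexamethasone minus vehicle, wild type) on the y axis; red genes were higher and blue genes lower in limma. Increases reach 7.13 (Sult1e1) and decreases -3.75 (Arrdc3), with 57 red genes at or above 2 and 12 blue genes at or below -2.

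The arrays allow the drug to be compared within each kind of array, in sets that share none. Among those above the Cpa1 limit, dexamethasone 3 was set against vehicle 1 and 2, and among those at or below it, dexamethasone 1 and 2 were set against vehicle 3. With 1 or 2 arrays a group these are values with no test. Pancreas content was not equal above the limit, with a Cpa1 of 9.44 on dexamethasone 3 and of 11.64 and 11.21 on vehicle 1 and 2. The median change of the pancreas markers was -1.99 there and 0.05 at or below the limit. In the arrays above the limit 243 genes were at least 2-fold higher and in those below it 274, with 181 in both, or 74.5% of the first list and 66.1% of the second. At least 2-fold lower were 311 and 227 genes, with 138 in both, or 44.4% and 60.8%. Genes at least 2-fold higher above the limit and at least 2-fold lower below it numbered 1, and the reverse pairing of a decrease above with an increase below numbered 6. Pancreas markers made up 24 of the 311, and of the 26 markers 0 changed 2-fold either way in the arrays below the limit. Over all 17904 genes the changes correlated at 0.70 (Pearson) and 0.47 (Spearman), as a description across genes that are not independent.

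**Figure D2:**
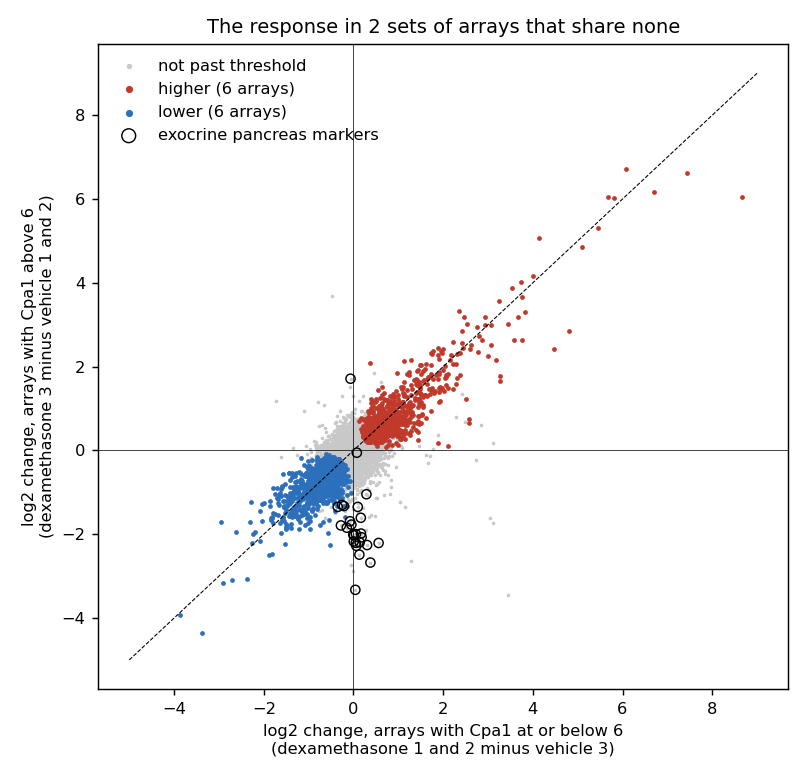
Each point is 1 of 17904 genes, with the log2 change (dexamethasone minus vehicle) among arrays with Cpa1 at or below 6 on the x axis and among arrays with Cpa1 above 6 on the y axis; the dashed line marks equal changes. Called genes (red, blue) lie along the line in both directions. They were called on these same arrays, so their likeness on both axes is partly fixed in advance and is no separate check. The circled pancreas markers lie near 0 on the x axis and, for 24 of 26, at or below -1 on the y axis.

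The 10 steepest increases joined detoxifying enzymes, metallothioneins and stress regulators, and every one was separated from vehicle by a wide gap. Sult1e1, which sulfates oestrogens, stood at 9.87, 9.40 and 8.91 in dexamethasone livers, against 2.36, 2.24 and 2.19 in vehicle livers (log2 change 7.13 ± 0.23 SE, limma adjusted p = 5.67e-10). On each array 20% of the values lie below 2.17 to 2.23, close to its vehicle level, and the deposited values hold no detection calls, so its change is a lower limit and its exact size was not measured. It was also the only gene below the median of every vehicle array and above the 75th percentile of every dexamethasone array. Cyp2b10, a drug-metabolising P450, reached 11.67, 11.69 and 11.68 in dexamethasone livers, against 5.48, 5.80 and 3.02 in vehicle livers (6.91 ± 0.58, limma adjusted p = 6.31e-06). The treated values were nearly equal, while vehicle 3 lay well below the other vehicle arrays. Lcn2, an iron-binding acute-phase protein, had 11.08, 10.93 and 10.84 in dexamethasone livers and 4.51, 4.85 and 4.30 in vehicle livers (6.40 ± 0.16, limma adjusted p = 4.99e-11). Fam107a, an actin-associated protein known from glucocorticoid-treated brain, had 9.81, 9.18 and 9.55 in dexamethasone livers, against 2.74, 2.91 and 3.43 in vehicle livers. Among stress genes of the growth-arrest family Gadd45b rose by 5.83 ± 0.21 and Gadd45g rose by 5.34 ± 0.59, whereas Gadd45a of the same family fell by 1.15 ± 0.14. Ddit4, an inhibitor of mTORC1, had 7.69, 8.52 and 8.93 in dexamethasone livers and 3.44, 4.28 and 3.98 in vehicle livers. Without the arrays above the Cpa1 limit the 10 changes ran up to 8.66 (Cyp2b10), all past the threshold.

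The next 20 increases reached a change of 3.93 and held several genes of fat and sugar metabolism. Phf11c rose by 3.93 ± 0.33, and its neighbour on chromosome 14, Setdb2, a gene of the histone methyltransferase family, rose by 3.04 ± 0.25. Scara5, a ferritin-binding scavenger receptor, had 7.78, 7.82 and 7.55 in dexamethasone livers and 3.74, 4.05 and 4.05 in vehicle livers (3.77 ± 0.12). Lpin1, a phosphatidate phosphatase and coactivator, had 11.48, 11.46 and 11.12 in dexamethasone livers, against 8.19, 8.03 and 8.02 in vehicle livers (3.27 ± 0.17, limma adjusted p = 8.64e-08). Pnmt, which makes adrenaline from noradrenaline in the adrenal medulla, had 6.17, 6.68 and 6.12 in dexamethasone livers and 2.69, 3.16 and 2.75 in vehicle livers. Dusp1, a phosphatase that switches off MAP kinases, rose by 3.21 ± 0.23. Mfsd2a, a lysophospholipid transporter, rose by 3.51 ± 0.55, Tcim by 2.79 ± 0.17 and Pfkfb3, which makes an activator of glycolysis, by 2.75 ± 0.37. Serpina4-ps1 is annotated as a pseudogene of a serpin cluster, so its 3.36 ± 0.66 may include signal from related genes. Plcl1 (3.18) and Igfbp1 (2.35) were the 2 of these 20 that missed the threshold without the arrays above the Cpa1 limit, with adjusted p-values in limma of 0.0508 and 0.293.

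**Figure D3:**
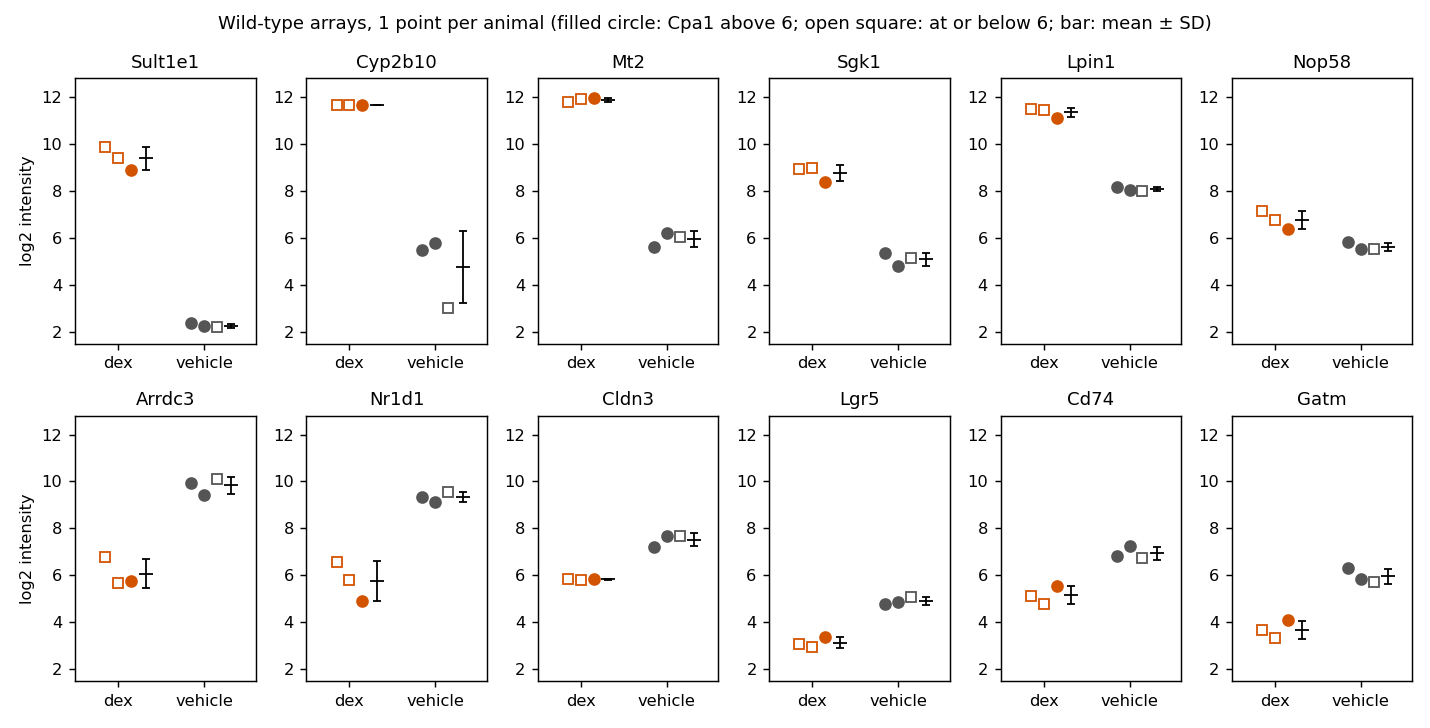
Log2 intensity of 12 named genes on each wild-type array, dexamethasone left of vehicle, with mean ± SD (n = 3) beside the points; filled circles are arrays with Cpa1 above 6 and open squares those at or below it. The groups do not overlap for any of the 12 genes, and filled and open symbols lie together within most groups, the vehicle values of Cyp2b10 being the widest spread.

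The list of known glucocorticoid targets was chosen with earlier results of these data known, so its counts are no independent check. Most of its genes rose: 24 of 31 were higher, against 4.57% of all genes. The 1 that was lower was the kinase gene Sgk3 (-0.68 ± 0.10), and the median change was 1.63. In the 8 arrays at or below the Cpa1 limit 17 were higher and 1 lower, at a median of 1.55. Sgk1, a kinase that controls sodium channels and a textbook receptor target, had 8.93, 8.99 and 8.39 in dexamethasone livers and 5.35, 4.81 and 5.13 in vehicle livers (3.67 ± 0.22, limma adjusted p = 3.24e-07). Mt2, a zinc-binding metallothionein, had 11.79, 11.92 and 11.95 in dexamethasone livers, against 5.59, 6.23 and 6.05 in vehicle livers. Mt1 beside it had 11.80, 11.82 and 11.85 in dexamethasone livers and 7.14, 8.24 and 7.80 in vehicle livers. The treated levels of both are narrowly spread, and the vehicle levels do not approach them. Other zinc genes split, with the zinc importer gene Slc39a14 at 1.22 ± 0.16 and its relative Slc39a8 at -0.61 ± 0.12. Fkbp5, a co-chaperone that lowers the receptor's affinity for its ligand, rose by 5.01 ± 0.22, while Fkbp4, a co-chaperone of the active receptor, fell by 0.56 ± 0.13 and missed the threshold without the arrays above the Cpa1 limit (-0.44, limma adjusted p = 0.376). Nr3c1 itself, named here outside the rule for genes, had 7.55, 7.65 and 7.17 in dexamethasone livers and 7.85, 7.38 and 7.72 in vehicle livers, with overlapping groups (limma adjusted p = 0.484). The receptor for mineralocorticoids, Nr3c2, had 4.03, 4.09 and 4.46 in dexamethasone livers and 6.14, 6.13 and 6.10 in vehicle livers, a fall of 1.93 ± 0.24.

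Promoter sequence was available from RefSeq (GRCm38.p6) for 14094 of the tested genes, from 250 bases before the annotated start to 50 after it. The full palindrome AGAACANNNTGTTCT, searched on both strands, was found in 2 of them, or 0.0142%: Sgk1, and Acnat2, whose change missed the threshold (-0.69 ± 0.37, limma adjusted p = 0.289). A relaxed form, GNACANNNTGTNC, was chosen after that first search. It occurred in 10 of 645 genes that rose (1.55%), in 6 of 163 that rose at least 2-fold (3.68%), in 3 of 1024 that fell (0.293%) and in 67 of all 14094 (0.475%). Those 6 were Fam107a, Mt1, Sgk1, Map3k6, Fyb2 and Atp6v0a4. The single hexamer AGAACA occurred in 15.7% of genes that rose, 16.7% of those that fell and 16.7% of all. Among changes of at least 2-fold the hexamer went the other way from the relaxed form, in 14.1% of genes that rose and 23.1% of those that fell. The metal response core TGCNCNC was common throughout, in 65% of genes that rose, 65.8% of those that fell and 61.5% of all. These matches describe the letters in this window and show no binding, and elements farther away were not searched. Capitals mark the palindrome in Sgk1 and the relaxed form in Fam107a, Map3k6 and Mt1. Metal cores are in capitals in Mt1 and Mt2 only, and those that the Fam107a and Map3k6 windows also hold were left in lower case. These 5 promoters were picked from the steep increases as examples of both kinds of element.
Sgk1, chr10:21993640-21993939, plus strand: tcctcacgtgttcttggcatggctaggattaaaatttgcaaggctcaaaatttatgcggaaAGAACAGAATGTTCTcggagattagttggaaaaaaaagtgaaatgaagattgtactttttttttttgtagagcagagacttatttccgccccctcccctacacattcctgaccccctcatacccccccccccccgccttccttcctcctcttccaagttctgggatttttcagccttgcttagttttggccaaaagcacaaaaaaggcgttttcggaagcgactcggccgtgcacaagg
Fam107a, chr14:8309730-8310029, minus strand: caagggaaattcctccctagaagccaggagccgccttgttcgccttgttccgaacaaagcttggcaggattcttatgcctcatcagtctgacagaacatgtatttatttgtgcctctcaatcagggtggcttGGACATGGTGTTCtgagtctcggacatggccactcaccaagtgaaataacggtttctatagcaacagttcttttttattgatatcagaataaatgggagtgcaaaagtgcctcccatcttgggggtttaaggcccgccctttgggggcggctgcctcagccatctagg
Map3k6, chr4:133240568-133240867, plus strand: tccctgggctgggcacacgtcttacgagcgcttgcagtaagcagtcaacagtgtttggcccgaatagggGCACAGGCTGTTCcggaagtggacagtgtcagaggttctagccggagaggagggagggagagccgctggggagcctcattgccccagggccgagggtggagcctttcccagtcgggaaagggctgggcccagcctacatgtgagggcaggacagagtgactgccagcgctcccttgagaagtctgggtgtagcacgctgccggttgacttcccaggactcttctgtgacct
Mt1, chr8:94178839-94179138, plus strand: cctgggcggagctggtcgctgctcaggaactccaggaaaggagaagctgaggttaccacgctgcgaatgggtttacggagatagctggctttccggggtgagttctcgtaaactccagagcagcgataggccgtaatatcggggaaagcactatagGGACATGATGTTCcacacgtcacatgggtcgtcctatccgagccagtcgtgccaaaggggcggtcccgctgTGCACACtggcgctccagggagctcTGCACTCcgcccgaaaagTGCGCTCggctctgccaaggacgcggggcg
Mt2, chr8:94172368-94172667, plus strand: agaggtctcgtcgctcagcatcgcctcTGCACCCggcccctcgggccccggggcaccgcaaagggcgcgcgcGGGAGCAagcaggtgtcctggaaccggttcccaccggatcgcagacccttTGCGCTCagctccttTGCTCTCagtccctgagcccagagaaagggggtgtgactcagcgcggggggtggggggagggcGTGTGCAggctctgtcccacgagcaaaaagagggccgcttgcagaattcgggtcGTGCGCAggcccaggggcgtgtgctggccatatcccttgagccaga
Map3k6, a kinase of the stress pathways, rose by 2.11 ± 0.16, Fyb2 by 1.45 ± 0.29 and the proton pump subunit gene Atp6v0a4 by 1.13 ± 0.24, and these genes and Acnat2 are named for their promoters after their values were seen. Mt1 carried 3 metal cores beside its relaxed element, and Mt2 carried 6 metal cores and no relaxed element in this window.

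The steepest decreases held signalling, metabolic and clock genes. Arrdc3, an arrestin-family gene, had 6.79, 5.68 and 5.76 in dexamethasone livers, against 9.95, 9.42 and 10.11 in vehicle livers (-3.75 ± 0.26, limma adjusted p = 1.37e-06). Its relative Arrdc4 fell by 1.37 ± 0.17 while Arrdc2 rose by 2.56 ± 0.19, and of 8 arrestin genes 4 fell and 1 rose, with 2 and 1 in the 8 arrays. Osgin1, an oxidative stress response gene, had 5.57, 5.91 and 5.51 in dexamethasone livers and 8.58, 8.65 and 8.45 in vehicle livers. Gatm, which begins creatine synthesis, had 3.66, 3.32 and 4.08 in dexamethasone livers, against 6.32, 5.84 and 5.72 in vehicle livers. Rnf152, a ubiquitin ligase of the mTORC1 pathway, fell by 2.08 ± 0.18, Tifa, an adaptor in NF-kappaB signalling, by 2.05 ± 0.23, the kinase Plk2 by 1.89 ± 0.25 and Depdc7 by 1.78 ± 0.19. Aqp8, a water channel of the bile canaliculus, had 7.34, 8.10 and 7.23 in dexamethasone livers and 9.76, 9.16 and 9.25 in vehicle livers (-1.83 ± 0.43, limma adjusted p = 0.0135), and was not called without the arrays above the Cpa1 limit (-1.52, limma adjusted p = 0.332), or without vehicle 1, dexamethasone 1 or dexamethasone 3 alone (-1.64 to -1.72). Irf1 and Mid1ip1, among the 10 steepest decreases at -2.09 and -2.22, each had a second probe set that did not move (0.01 and 0.10).

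More junction and keratin genes fell than rose. Of 27 tested, 11 fell and 1 rose, with a median of -0.41; in the 8 arrays at or below the Cpa1 limit 4 fell and 1 rose, with a median of -0.26. Cldn3, a claudin of the tight junction, had 5.85, 5.80 and 5.84 in dexamethasone livers, against 7.20, 7.69 and 7.67 in vehicle livers (-1.69 ± 0.12, limma adjusted p = 2.19e-06). Its treated values were nearly equal. Cldn1 had 5.34, 5.27 and 4.96 in dexamethasone livers and 8.62, 7.63 and 8.21 in vehicle livers (-2.96 ± 0.46), Cldn2 fell by 1.18 ± 0.13 and the scaffold gene Tjp3 by 1.099 ± 0.15. Cldn14 went the other way, at 6.75, 6.50 and 6.19 in dexamethasone livers and 4.93, 5.05 and 5.25 in vehicle livers (1.40 ± 0.15). E-cadherin, Cdh1, fell by 0.86 ± 0.15, and the junction adhesion gene F11r by 0.59 ± 0.14. Exocrine pancreas is an epithelium with such genes of its own. Without the arrays that carry it Cldn3 (-1.85), Cldn2 (-0.91) and Tjp3 (-1.16) kept their calls, and Cldn1 (-2.90), Cdh1 (-0.80) and F11r (-0.43) missed the threshold, with limma adjusted p-values of 0.0928, 0.123 and 0.355.

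A pair of genes of Wnt signalling, the pathway that sets the hepatocyte zone around the central vein, lay among the 30 steepest decreases. Lgr5, a receptor that amplifies Wnt signals in pericentral hepatocytes, had 3.07, 2.94 and 3.38 in dexamethasone livers, against 4.76, 4.87 and 5.08 in vehicle livers (-1.77 ± 0.16, limma adjusted p = 1.41e-05). Rnf43, a ubiquitin ligase that removes Wnt receptors, had 4.26, 4.79 and 5.03 in dexamethasone livers and 5.82, 6.77 and 6.57 in vehicle livers (-1.70 ± 0.26). The zonal lists as wholes did not move one way: of 19 pericentral genes 3 rose and 3 fell (median -0.18), and of 18 periportal genes 3 rose and 3 fell (median -0.01). Glul, glutamine synthetase of the last hepatocyte layer, rose by 0.33 ± 0.08, and Slc1a2, a glutamate transporter of the same layer, by 0.82 ± 0.16, so members of the pericentral list split. In the 8 arrays Lgr5 (-2.08) and Rnf43 (-2.05) kept their calls, and 2 pericentral genes were lower and 0 higher.

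Ribosome biogenesis genes leaned upward, while 0 ribosomal protein genes were called. Of 30 genes that process ribosomal RNA or assemble ribosomes 12 rose and 0 fell, with a median of 0.42 (21 and 1 at an unadjusted p below 0.05). In the 8 arrays at or below the Cpa1 limit 8 rose and 0 fell, with a median of 0.56. Nop58, a core protein of box C/D ribonucleoproteins, had 7.16, 6.78 and 6.38 in dexamethasone livers, against 5.82, 5.53 and 5.53 in vehicle livers (1.14 ± 0.19, limma adjusted p = 1.51e-03). Its partner Nop56 had 7.69, 7.61 and 7.25 in dexamethasone livers and 6.56, 6.55 and 6.55 in vehicle livers (0.96 ± 0.14). Heatr1, which serves RNA polymerase I transcription, rose by 0.73 ± 0.11, and Utp4, of the small subunit processome, by 0.59 ± 0.10. The small nucleolar RNA genes Snora73a (1.33 ± 0.31) and Snora73b (1.602 ± 0.27), beside Rcc1 on chromosome 4, rose, and their close similarity may let probes read both. Of 36 ribosomal protein genes 0 were called in either direction in limma, also at an unadjusted p below 0.05, with changes between -0.32 and 0.28. Of 47 oxidative phosphorylation genes 0 were called (1 higher and 2 lower at an unadjusted p below 0.05). Of 32 proteasome genes 1, Psmd11, fell, by 0.33 ± 0.08 (0 and 2 at an unadjusted p below 0.05). Myc, a known regulator of ribosome genes, had 7.21, 7.07 and 7.06 in dexamethasone livers and 4.80, 6.63 and 4.71 in vehicle livers. It missed the threshold (1.73 ± 0.56, limma adjusted p = 0.0633), which it passed without vehicle 2 alone (2.36). Without the arrays above the Cpa1 limit its change was 2.43. It also passed the threshold with the pancreas covariate (2.24, limma adjusted p = 0.0167). In knockout livers its change was -0.51 (limma adjusted p = 0.751), and 16 of the 30 ribosome biogenesis genes rose there. A part of Myc in the changes of these genes was not tested.

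More gluconeogenesis genes rose than fell, and the genes of amino acid breakdown were divided. Of 21 gluconeogenesis genes 7 rose and 0 fell (12 and 2 at an unadjusted p below 0.05), with 4 and 0 without the arrays above the Cpa1 limit. Foxo1, a fasting transcription factor, had 7.98, 8.07 and 7.71 in dexamethasone livers, against 6.74, 6.51 and 6.81 in vehicle livers (1.24 ± 0.13). Pck1, which commits carbon to glucose, had 11.91, 12.06 and 12.04 in dexamethasone livers and 11.05, 10.997 and 11.37 in vehicle livers (0.87 ± 0.21), a call that was lost without vehicle 1 (0.82), vehicle 2 (0.80) or dexamethasone 2 (0.84). Without the arrays above the Cpa1 limit the change of Pck1 was 0.62. G6pc had 10.43, 10.36 and 10.11 in dexamethasone livers and 9.91, 8.36 and 9.96 in vehicle livers, and missed the threshold (0.89 ± 0.33, limma adjusted p = 0.108), which it passed without vehicle 3 (1.16). Of 49 genes of amino acid breakdown and the urea cycle 7 rose and 7 fell (9 and 16 at an unadjusted p below 0.05), with a median of -0.09, and 2 rose and 1 fell in the 8 arrays. Tat, which opens tyrosine breakdown, had 12.85, 12.96 and 12.99 in dexamethasone livers and 11.95, 11.89 and 11.88 in vehicle livers. The lysine enzyme gene Aass rose by 0.96 ± 0.14, the alanine transaminase gene Gpt2 by 0.84 ± 0.15 and the urea cycle gene Asl by 0.53 ± 0.11, while Amt of glycine cleavage fell by 0.75 ± 0.19. Without the arrays above the Cpa1 limit the changes were 1.03 (Tat), 1.07 (Aass), 0.83 (Gpt2) and -0.68 (Amt). Of 28 amino acid transport and synthesis genes 9 rose and 2 fell, with 4 and 1 in the 8 arrays. The transporter gene Slc38a2 had 10.57, 10.65 and 10.60 in dexamethasone livers and 9.13, 8.65 and 9.22 in vehicle livers. Asns, asparagine synthetase, had 7.10, 7.03 and 5.96 in dexamethasone livers and 5.62, 4.79 and 4.50 in vehicle livers (1.73 ± 0.32).

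Genes of fat storage and of fat synthesis were called in both directions. Of 25 genes of lipid droplets and lipases 7 rose and 5 fell, with 4 and 2 in the 8 arrays. Plin5, a droplet coat protein, had 9.14, 9.06 and 9.34 in dexamethasone livers, against 5.88, 5.65 and 5.85 in vehicle livers. Cidec, which enlarges droplets, rose by 1.78 ± 0.28 and the endothelial lipase Lipg by 1.87 ± 0.27, while lipoprotein lipase, Lpl, fell by 1.03 ± 0.16. The carboxylesterase genes Ces1e (-1.40), Ces1f (-0.62) and Ces1g (-0.92), adjacent on chromosome 8, fell, and probes for such paralogs may share signal. Of 32 lipogenesis genes 6 rose and 8 fell, with 1 and 1 without the arrays above the Cpa1 limit and as few as 3 and 5 with 1 wild-type array left out. Srebf1, the regulator of fatty acid synthesis, had 6.42, 6.90 and 6.92 in dexamethasone livers and 8.33, 8.82 and 8.50 in vehicle livers (-1.81 ± 0.26, limma adjusted p = 5.92e-04), and kept its call at -1.84 without those arrays. Lpin1 and Lpin2 (0.81 ± 0.14), enzymes of triglyceride assembly, are the members with the smallest p-values that rose. Of 35 fatty acid oxidation genes 10 rose and 1 fell, with 7 and 0 in the 8 arrays, and 6 rose without dexamethasone 2. Acot1, a thioesterase gene, had 6.84, 6.76 and 7.001 in dexamethasone livers and 4.71, 4.95 and 4.90 in vehicle livers. Cyp4a14, a fatty acid hydroxylase gene, rose by 2.28 ± 0.50 and lies beside Cyp4a10 (1.19 ± 0.21) and Cyp4a31 (1.43 ± 0.28) on chromosome 4. Of 34 glycolysis and glycogen genes 6 rose and 1 fell, with 4 and 0 in the 8 arrays. Those that rose include the glycogen-targeting subunit genes Ppp1r3c (2.85 ± 0.30) and Ppp1r3b (1.53 ± 0.22). Of 28 cholesterol genes 2 rose and 7 fell, with a median of -0.29, whereas 0 were called without the arrays above the Cpa1 limit and the median was 0.02. Among the secreted regulators Angptl4, an inhibitor of lipoprotein lipase, rose by 1.13 ± 0.16 and Angptl8, another one, fell by 1.36 ± 0.25. Without the arrays above the Cpa1 limit the change of Angptl4 was 0.86. Apoa4, an apolipoprotein, rose by 1.81 ± 0.23.

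Nuclear receptor and antioxidant genes were mostly lower among those called. Of 30 nuclear receptor genes 8 fell and 1 rose, with 3 and 1 in the 8 arrays. The gene that rose was Nr1i2, encoding the pregnane X receptor for drugs and bile acids, at 8.40, 8.37 and 8.47 in dexamethasone livers and 7.43, 7.65 and 7.54 in vehicle livers (0.88 ± 0.10). Nr2f2, an orphan receptor, had 6.49, 6.67 and 6.40 in dexamethasone livers and 7.66, 7.66 and 7.83 in vehicle livers (-1.20 ± 0.10, limma adjusted p = 4.31e-06). Nr2f6 fell by 0.72 ± 0.11, Nr5a2 of bile acid synthesis by 0.53 ± 0.11 and the thyroid hormone receptor gene Thra by 0.73 ± 0.17. Of 26 NRF2 pathway genes, targets and regulators together, 10 fell and 0 rose (15 and 1 at an unadjusted p below 0.05). Their median was -0.28, and it was -0.23 without the arrays above the Cpa1 limit. With 1 array left out the number that fell was 3 (without vehicle 2), 4 (without dexamethasone 1) and 5 (without dexamethasone 2), and it was 5 with the pancreas covariate. Nfe2l2, the gene of NRF2 itself, had 7.09, 7.14 and 7.46 in dexamethasone livers and 7.77, 7.96 and 7.92 in vehicle livers (-0.65 ± 0.11). Hmox1, haem oxygenase, fell by 1.15 ± 0.23 and is also expressed by Kupffer cells.

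Clock genes moved in both directions. Nr1d1, a repressor of the clock, had 6.58, 5.82 and 4.89 in dexamethasone livers, against 9.35, 9.14 and 9.57 in vehicle livers (-3.59 ± 0.45). Dbp, a clock output factor, had 7.61, 7.58 and 7.68 in dexamethasone livers and 8.27, 9.10 and 9.005 in vehicle livers, and Bhlhe41 fell by 1.79 ± 0.30. Ciart, a repressor of the same clock, rose instead, at 8.30, 8.46 and 8.70 in dexamethasone livers and 4.45, 6.59 and 5.92 in vehicle livers, and so did Per1 (0.92 ± 0.20), at 6.21, 6.04 and 6.16 in dexamethasone livers and 4.67, 5.46 and 5.50 in vehicle livers. Nfil3, a repressor with the opposite rhythm, had 7.51, 7.72 and 8.05 in dexamethasone livers and 5.89, 5.56 and 5.90 in vehicle livers (1.98 ± 0.18). Vehicle 1 had the lowest Ciart, Per1 and Dbp of the 3 vehicle arrays. The hour of collection is not known, so its part in these values was not tested. Per1 was not called without the arrays above the Cpa1 limit (0.62, limma adjusted p = 0.257).

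Bile acid, drug and transporter genes gave mixed counts. Called either way were 21.1% of the P450, 16.2% of the conjugation, 20.7% of the transporter and 34.6% of the bile acid genes. Over all genes it was 11.5%. Of 38 P450 genes outside fat and bile metabolism 2 rose and 6 fell, of 37 conjugation genes 2 rose and 4 fell, and of 29 transporter genes 1 rose and 5 fell. In the 8 arrays 1 and 1, 2 and 0, and 0 and 1 of these lists rose and fell. The lists' medians lay at -0.07, -0.07 and -0.18, far from Cyp2b10 and Sult1e1. Sult1d1, a sulfotransferase gene, had 11.36, 11.09 and 11.03 in dexamethasone livers and 9.44, 9.16 and 9.19 in vehicle livers (1.90 ± 0.20). Cyp2c55 fell by 1.53 ± 0.28 and Cyp2u1, counted here with male-biased genes, by 1.51 ± 0.16. In bile acid metabolism 4 of 26 rose and 5 fell, with 2 and 0 in the 8 arrays. Cyp39a1, an oxysterol hydroxylase gene, had 9.47, 9.60 and 9.46 in dexamethasone livers and 7.83, 7.33 and 7.62 in vehicle livers (1.92 ± 0.12), and the bile acid uptake carrier gene Slc10a2 rose by 1.81 ± 0.23, while Fgfr4, the hepatocyte FGF receptor, fell by 0.52 ± 0.10.

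More acute-phase genes rose than fell, and more MHC class II and interferon genes fell than rose. Of 24 acute-phase genes 7 rose and 0 fell (10 and 1 at an unadjusted p below 0.05), with 5 and 0 in the 8 arrays. Saa1, a serum amyloid, had 9.09, 8.11 and 8.81 in dexamethasone livers and 4.32, 5.57 and 5.06 in vehicle livers. Hp, haptoglobin, had 12.45, 12.22 and 12.33 in dexamethasone livers and 11.72, 11.79 and 11.60 in vehicle livers, and Il6ra, a receptor chain for the acute-phase cytokine IL-6, rose by 1.30 ± 0.16. Of 9 MHC class II genes 5 fell and 0 rose (6 and 0 at an unadjusted p below 0.05), with a median of -0.76. Cd74, the invariant chain, had 5.11, 4.79 and 5.56 in dexamethasone livers, against 6.82, 7.27 and 6.75 in vehicle livers (-1.79 ± 0.27). H2-Ab1 (-1.79), H2-Aa (-1.73) and H2-Eb1 (-1.40), side by side on chromosome 17, fell too. In the 8 arrays 2 of the list kept a call, Cd74 (-1.80) and H2-Ab1 (-2.29). Of 34 interferon genes 20 fell and 2 rose, with a median of -0.59, and 6 fell and 0 rose in the 8 arrays at a median of -0.60. Without dexamethasone 2 the number that fell was 13. The 2 that rose were Usp18 (1.79 ± 0.25), which removes the ISG15 tag, and Irgm1 (0.98), an immunity-related GTPase gene named after its value was seen. Guanylate-binding protein genes fell in runs of 4 on chromosome 3 (Gbp5, Gbp7, Gbp3 and Gbp2b, -0.39 to -1.33) and of 3 on chromosome 5 (Gbp8, Gbp9 and Gbp4), and members of this family can share probe signal. Without the arrays above the Cpa1 limit their changes ran from -0.23 (Gbp5) to -1.70 (Gbp3). Gbp5, Gbp3, Gbp2b and Gbp4 lost the call under at least 1 left-out wild-type array. Cxcl10, an interferon-induced chemokine gene, had 2.58, 2.59 and 2.51 in dexamethasone livers and 4.36, 3.82 and 3.93 in vehicle livers.

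Markers of Kupffer cells, the resident macrophages of liver, moved with these immune decreases. Of 26 markers 16 fell and 1 rose, with a median of -0.89. The number that fell was 9 without vehicle 1, 9 without dexamethasone 2, 10 with the pancreas covariate and 1 in the 8 arrays. Their mean level was 5.72, 5.36 and 5.76 in dexamethasone livers and 6.88, 6.24 and 6.23 in vehicle livers, so the groups did not overlap and vehicle 1 was the highest. In RNA of whole tissue fewer cells of a type and less RNA per cell cannot be told apart. Msr1, a scavenger receptor, had 4.53, 4.40 and 4.74 in dexamethasone livers and 5.94, 5.67 and 5.68 in vehicle livers, and kept its call without the arrays above the Cpa1 limit (-1.22, limma adjusted p = 0.0426), the only Kupffer marker to do so. The list's median there was -0.69. Cd163, a haemoglobin scavenger receptor known to be raised by glucocorticoids in macrophages, rose by 1.25 ± 0.28. Of 27 endothelial markers 9 fell and 1 rose, with 1 and 1 in the 8 arrays, and their mean level was 6.45, 6.30 and 6.32 in dexamethasone livers and 6.76, 6.58 and 6.56 in vehicle livers. Kdr, a VEGF receptor, fell by 1.24 ± 0.14 and Lyve1, a hyaluronan receptor of sinusoids, rose by 1.80 ± 0.17. Of 31 stellate and matrix markers 4 fell and 1 rose, with 0 called in limma in the 8 arrays, and their mean level was 5.61, 5.62 and 5.66 in dexamethasone livers and 5.98, 5.80 and 5.73 in vehicle livers. Of 30 lymphocyte markers 4 fell and 1 rose, again with 0 in the 8 arrays, while of 16 neutrophil markers 0 were called in limma (2 and 2 at an unadjusted p below 0.05). Pancreas markers had means of 2.91, 2.94 and 6.82 in dexamethasone livers and 8.65, 8.48 and 2.88 in vehicle livers. Called either way were 65.4% of the Kupffer, 37.0% of the endothelial, 16.1% of the stellate and matrix and 16.7% of the lymphocyte markers. Over all genes it was 11.5%, and the stellate and lymphocyte shares lay not far above that. Calls in the 8 arrays were few over all genes too, so low counts there say little about the markers. The part of any of these cell types in the gene changes was not tested.

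**Figure D4:**
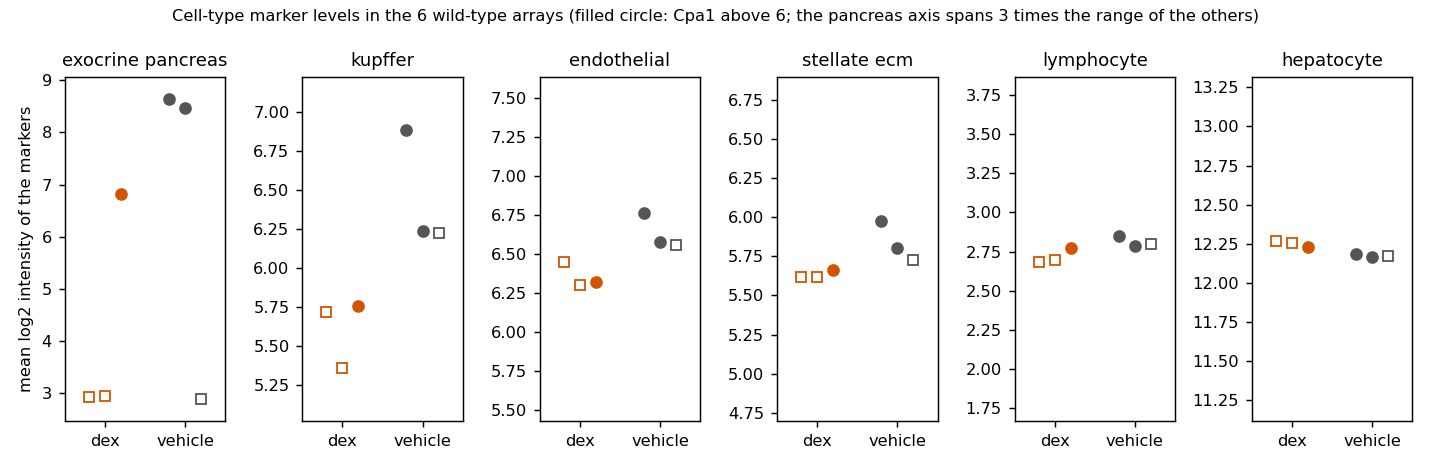
Mean log2 intensity of the markers of 6 cell types on each wild-type array, dexamethasone left of vehicle; filled circles are arrays with Cpa1 above 6, open squares those at or below it, and the pancreas axis spans 3 times the range of the other axes. Kupffer means lie between 5.36 and 5.76 in dexamethasone livers and between 6.23 and 6.88 in vehicle livers, and hepatocyte means between 12.16 and 12.27 throughout.

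Signalling and growth genes gave further splits within families. Over all genes 4.57% rose and 6.95% fell, or 11.5% either way. The cell cycle list, at 8.8% called, and the histone deacetylase list, at 11.1%, lay near that share. Of 28 growth factor receptor and MAP kinase phosphatase genes 3 rose and 9 fell, with 1 and 2 in the 8 arrays, and 5 fell without vehicle 2. Dusp1 and Dusp4 (1.04 ± 0.30) rose while Dusp10, another such phosphatase, fell by 0.99 ± 0.14, with 3.19, 3.00 and 2.65 in dexamethasone livers and 3.95, 3.87 and 4.01 in vehicle livers. Erbb3, a co-receptor of the EGF receptor family, fell by 1.25 ± 0.25. Of 37 FoxO, autophagy and atrophy genes 10 rose and 6 fell, with 3 and 2 in the 8 arrays, and Fbxo31 (1.28 ± 0.17) and Bnip3 (0.82 ± 0.12) were among those that rose. Of 23 growth-arrest genes 5 rose and 5 fell, with 4 and 3 in the 8 arrays, and Trp53inp1 had 10.22, 10.70 and 10.65 in dexamethasone livers and 8.62, 8.02 and 8.49 in vehicle livers. Of 34 cell cycle genes 1 rose and 2 fell, with 1 and 0 in the 8 arrays. Of 24 iron genes 4 rose and 3 fell, with 4 and 0 in the 8 arrays. The transferrin receptor gene Tfrc had 6.79, 7.23 and 7.17 in dexamethasone livers and 5.74, 5.61 and 5.03 in vehicle livers, and Hjv, which activates hepcidin, fell by 0.97 ± 0.13. Tubb5, a beta-tubulin gene, had 6.74, 6.08 and 5.97 in dexamethasone livers and 7.72, 7.38 and 7.78 in vehicle livers, and of 15 tubulin genes 4 fell and 1, Tuba8, rose, with 1 and 0 in the 8 arrays. Of 18 histone deacetylase genes 2 fell and 0 rose (3 and 0 at an unadjusted p below 0.05), Hdac11 by 1.04 ± 0.12 and Hdac5 by 0.82 ± 0.16. Hdac6 had 5.86, 6.18 and 5.92 in dexamethasone livers and 6.09, 6.08 and 6.43 in vehicle livers, with overlapping groups (limma adjusted p = 0.416).

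**Figure D5:**
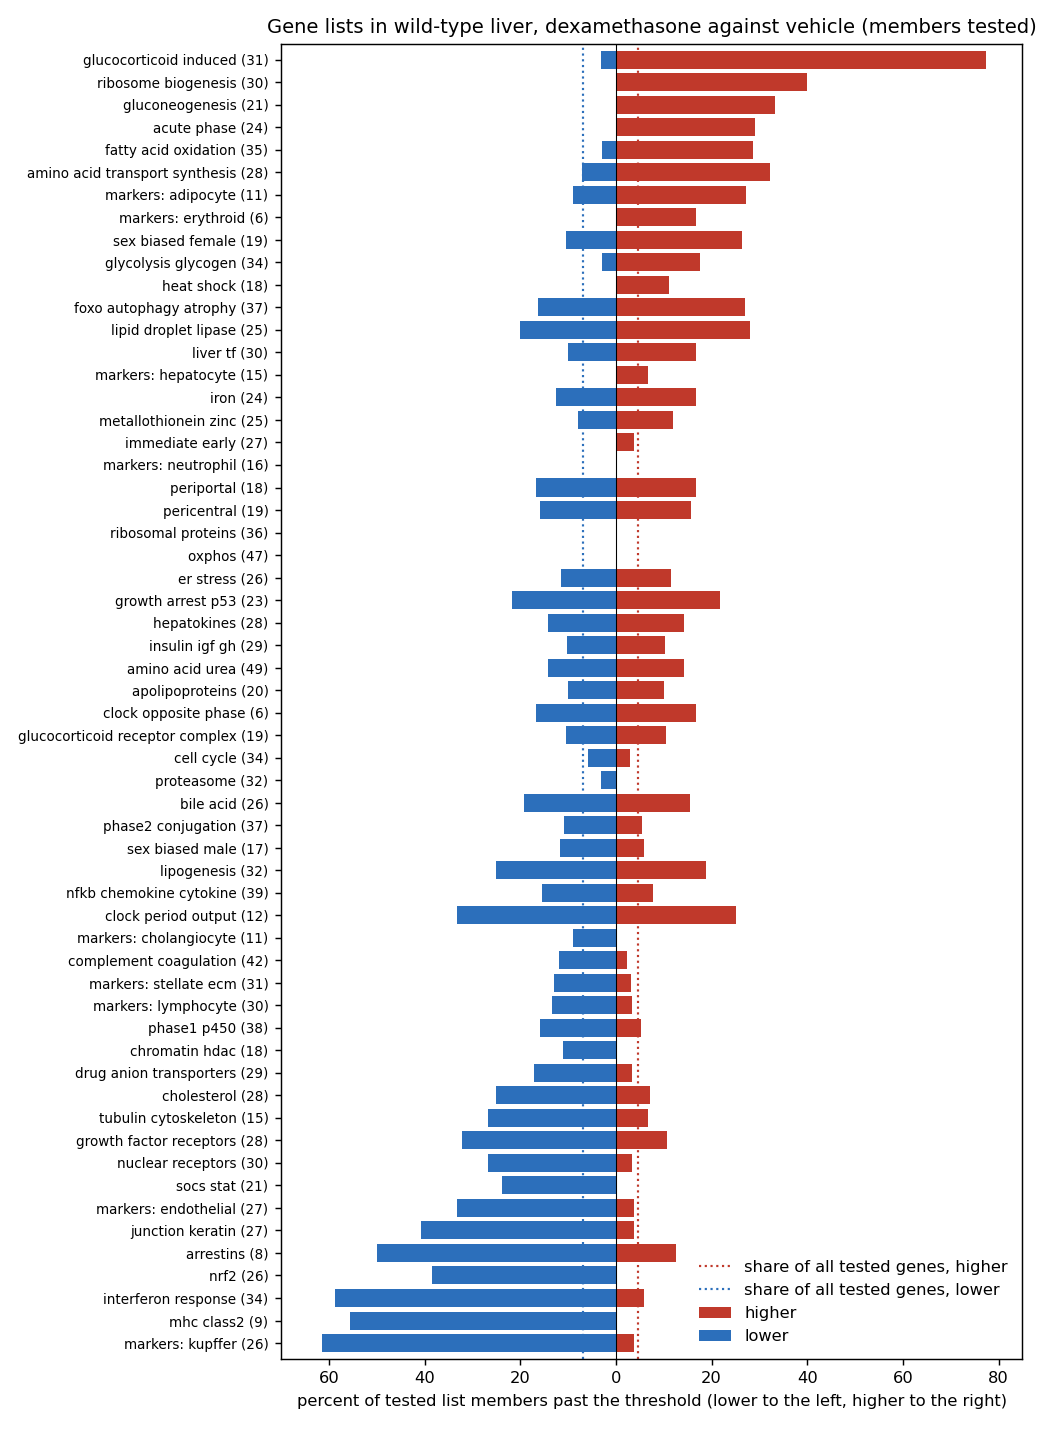
Percent of tested members of 58 gene lists that were higher (red, to the right) or lower (blue, to the left) with dexamethasone in wild-type liver in limma, with the number tested in brackets, ordered by the difference between both shares; dotted lines mark 4.57% and 6.95%, the shares over all 17904 genes. Glucocorticoid-induced and ribosome biogenesis genes lie at the top, Kupffer markers, MHC class II and interferon genes at the bottom, and ribosomal proteins and oxidative phosphorylation show no bar.

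Called genes of 1 direction also lay side by side on chromosomes, in 33 runs of at least 3 neighbouring tested genes. Saa3, Saa4 and Saa1 on chromosome 7 rose by 0.89 to 3.69, and Plin4, Plin5 and Lrg1 on chromosome 17 by 0.86 to 3.39. Tmc7 (3.06), Gde1 (1.47) and Ccp110 (0.80) on chromosome 7 rose, and all 3 were called without the arrays above the Cpa1 limit, as were Phf11c, Setdb2 and Cab39l on chromosome 14. Mpzl2 (2.01 ± 0.18), Mpzl3 (1.70 ± 0.12) and Jaml (0.57 ± 0.15) rose on chromosome 9. The longest run that fell held 5 genes on chromosome 13, among them Zfp367 (-0.91 ± 0.14) and Cdc14b (-1.22 ± 0.25), and 0 of its genes were called in the 8 arrays. How many such runs neighbours give without a shared response was not tested.

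The same drug in knockout animals, which share no array with the wild type, gave 784 increases (4.38%) and 701 decreases (3.92%). Of the wild-type calls, 534 of the 819 increases and 500 of the 1245 decreases were called there too. Among changes of at least 2 it was 55 of 57 and 11 of 12. Kupffer markers were the list whose medians lay farthest apart among the cell markers other than pancreas, at -0.06 in knockout and -0.89 in wild-type livers. Interferon genes had 3 higher and 3 lower in knockout livers at a median of -0.16, against 2 higher and 20 lower in wild-type livers at -0.59. Ribosome biogenesis genes, 16 higher and 0 lower in knockout livers at a median of 0.54, and junction genes, 1 higher and 11 lower at -0.42, had counts like those of the wild type. The difference between the genotypes' responses reached the threshold for 0 of 17904 genes in limma, and 1109 had an unadjusted p below 0.05. With no difference at all a share of 0.05 of the genes would have such a p. No difference between the genotypes in a list was tested.

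The changes that shrank most without the arrays above the Cpa1 limit were those of Adgrf1, Serpinb1a, Spink1, Hmgcs1, C3ar1, Cd163, Serpinb8, Igfbp1, Cxcl16 and Slc25a33, among genes called at 2-fold or more. Spink1, a trypsin inhibitor of the pancreas, was -1.11 ± 0.31 with all arrays and -0.21 without them, with 1.88, 1.95 and 2.37 in dexamethasone livers and 3.62, 3.77 and 2.13 in vehicle livers. Serpinb1a had 3.80, 3.15 and 3.40 in dexamethasone livers and 5.54, 5.79 and 4.01 in vehicle livers, with the higher values on the Cpa1-rich arrays among vehicle livers but not among dexamethasone livers. Adgrf1, an adhesion receptor, had 6.60, 7.13 and 7.33 in dexamethasone livers and 5.83, 4.64 and 6.49 in vehicle livers, with a change of 0.37 in the 8 arrays. Hmgcs1, of cholesterol synthesis, had 8.96, 9.18 and 8.39 in dexamethasone livers and 10.44, 10.29 and 9.64 in vehicle livers, a change of -1.28 ± 0.30 that was -0.57 in the 8 arrays.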

How the data were processed

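Total RNA of 12 livers was measured on Affymetrix whole-transcript arrays, per the labels' protocols. The deposited values are log2 intensities per probe set that the authors made in R 2.10.0 using affy (per the submitters' processing notes); background correction and normalisation are not given in the sources used here. Of 34760 probe sets 21640 carried 1 gene symbol in the platform annotation, 1321 several and 11799 none. Those with 1 symbol gave 19937 genes, and for the 954 genes with more than 1 probe set the one with the highest mean was kept. Genes above the 20th percentile of their array on at least 3 of 12 arrays were tested, 17904 in all.

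All 12 arrays were fitted as 4 group means with limma 3.58.1 (R 4.3.3), with 8 residual degrees of freedom, and called at a Benjamini-Hochberg adjusted p below 0.05 over all genes. The median residual SD was 0.143. The number of arrays limits the precision: 3 against 3 in an exact permutation test cannot give a p below 0.1. p-values measure the spread between arrays labelled as biological replicates. The fit was tested on simulated data first. Figures were drawn with Python 3.11.15, pandas 2.3.3 and matplotlib 3.10.9.

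Genes named were the 30 largest increases and decreases with fully separated groups, without predicted genes, a short list of known targets, up to 4 members with the smallest p in each of 59 gene lists, the 10 genes whose change shrank most without the arrays above a Cpa1 log2 of 6, and members of neighbouring runs. Sgk3, Nr3c1, Irgm1, Acnat2, Map3k6, Fyb2 and Atp6v0a4 were named after their values were seen. The members and lists were chosen with earlier results of these data known. Alternatives were filters, scalings, probe set averaging, variance settings, array weights, a replicate block, a pancreas covariate, and leaving out arrays.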

Additional observations from a re-analysis of the deposited data

How the results depend on the processing

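Without the arrays above the Cpa1 limit the wild-type counts were 306 higher and 253 lower, and the knockout count of decreases was 463. Requiring at least a 2-fold change left 222 and 201 in the wild type and 256 and 132 in the knockout. Leaving out 1 array at a time gave 583 to 721 increases and 834 to 1115 decreases in the wild type, and 539 to 713 and 454 to 653 in the knockout. Centring each array on its median gave 657 increases and 1551 decreases in the wild type, against 819 and 1245. The difference between the genotypes' effects, 0 genes in the fit of all arrays, gave 0 to 3 genes with 1 array left out and 1 gene, Ciart (2.01, limma adjusted p = 0.0305), without the arrays above the Cpa1 limit. Changes of sign were seen for Cpa1 (0.17 without the arrays above the limit and 0.49 with the pancreas covariate), Itgam (0.004) and Reg1 (0.042), the last of these without the arrays above the limit; none of the 3 was past the threshold with all arrays. The cause of the moved counts was not tested, except that settings with fewer arrays have fewer residual degrees of freedom. Of the values of named genes under the alternatives 5029 kept direction and side of the threshold, 484 lost the call, 29 gained it and 4 changed sign. Among genes named in the report, Adgrf1, Amt, C3ar1, Ccp110, Ces1f, Ces1g, Dusp4, F11r, Fkbp4, Gbp2b, Gbp3, Gbp4, Gbp5, Glul, Hmgcs1, Jaml, Lrg1, Psmd11, Saa3, Snora73a, Spink1 and Thra lost the call under at least 1 left-out wild-type array, with Adgrf1 at 0.86 without vehicle 2, Dusp4 at 0.68 without dexamethasone 1 and Jaml at 0.36 without dexamethasone 2. The replicate block gave 791 increases and 1227 decreases in the wild type, 753 and 687 in the knockout, and 0 genes for the difference. Replicate numbers did not pair the arrays: same-numbered wild-type arrays correlated at 0.007, -0.145 and -0.440 in their deviations from group means, and not every array correlated best with its own number. The other alternatives kept each count over all genes within 1.5 times of the value reported. Of the counts for gene lists 1712 stayed within that range and 294 moved by more. Among those that moved were the pancreas covariate's 5 NRF2 pathway genes lower (10 reported), 10 Kupffer markers lower (16) and 5 lipogenesis genes lower (8).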
